A study of Homo sapiens with 8 samples.

Results

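Ribosome footprints of 7 genes that make prostaglandins were measured in clones of BJ-HRAS cells, which are human skin fibroblasts of an established line. The genes were chosen by name (PLA2G4A, PTGS1, PTGS2, PTGES, PTGES2, PTGES3 and PTGIS), and all 7 were listed in both deposited tables, which had 10685 genes in common. They were chosen with earlier results of these data known. Their levels are therefore descriptions, and an adjusted p places a gene among all genes tested without being independent evidence for it.

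Prostaglandins are short-lived lipid signals of inflammation, pain and wound repair. Cytosolic phospholipase A2, encoded by PLA2G4A, frees arachidonate from membranes, and the cyclooxygenases COX-1 (PTGS1) and COX-2 (PTGS2) turn it into prostaglandin H2. COX-1 is made steadily in most tissues, while COX-2 is induced by cytokines, growth factors and RAS signalling. Terminal synthases then give prostaglandin E2 (PTGES, PTGES2 and PTGES3) or prostacyclin (PTGIS), and fibroblasts are a known source of prostaglandin E2.

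The 4 groups were SNORA13 knockout (KO, clones 66 and 69) with 4-OHT, wild type (WT, clones 15 and 54) with 4-OHT, KO without 4-OHT and WT without 4-OHT, with 1 library per clone in each. SNORA13 is a small nucleolar RNA, and 4-OHT ((Z)-4-hydroxytamoxifen, 100 nM for 7 days) is a ligand often used to switch on proteins fused to an estrogen receptor domain. Libraries without 4-OHT are recorded at 0 nM and day 0, and those with it at day 7. The effect of 4-OHT and any effect of time in culture thus cannot be told apart. All cells of all groups were BJ-HRAS, and the labels do not give the form of HRAS or its promoter. Recovered reads numbered 190819 and 982241 in KO libraries with 4-OHT, 588120 and 1684668 in WT libraries with 4-OHT, 900806 and 1709125 in KO libraries without 4-OHT, and 790509 and 1321263 in WT libraries without it. KO clone 66 with 4-OHT was the shallowest library, with 3169 of its 11079 listed genes at 0. SNORA13 was not found under this name in either table, so the knockout was not checked here. All 11 fibroblast markers were listed, and they held 2.73% to 2.79% of reads in KO clones with 4-OHT and 2.60% to 3.12% in WT clones with 4-OHT, against 6.06% to 7.11% in KO clones and 7.54% to 7.85% in WT clones without it. They did not all move one way. Mean RPKM with 4-OHT was 3.05 times that without it for VIM, 2.44 for S100A4 and 1.29 for THY1 in KO clones. In WT clones it was 3.42, 4.38 and 1.36 times. The means of the other fibroblast markers, which include the collagens, fell in both genotypes.

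Values are RPKM, reads per kilobase of gene span (introns included) scaled to the size of the library, so levels of different genes depend on their introns as well. A value rises with more mRNA as well as with more translation of it. In bulk libraries more cells that make an mRNA and more of it per cell cannot be told apart. The 4-OHT libraries stand in a table of their own, so 4-OHT and any batch of that table cannot be told apart. Genotype and clone cannot be told apart either.

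The stretches before the starts of PTGS2, PTGS1 (which has 2) and PTGES set the inducible cyclooxygenase gene beside its steadily expressed relative and the synthase gene described with it below. Each line gives the 250 bases upstream of the annotated start, 5′ to 3′ on the gene's strand, from RefSeq (GRCh38.p14). Capitals mark matches to 7 motifs, searched on either strand. The letters TATAAA stand for the TATA box, which sets where transcription starts. TTNNGNAA is the core bound by C/EBP factors, and TGACG is the repeated unit of a cyclic AMP response element (CRE half-site). CANNTG is the E-box of helix-loop-helix factors. TGANTCA is the AP-1 site, and GCGTGGGCG is the site of EGR1. For NF-kB a loose core was used, GGG and CCC with 4 free bases between them.
PTGS2: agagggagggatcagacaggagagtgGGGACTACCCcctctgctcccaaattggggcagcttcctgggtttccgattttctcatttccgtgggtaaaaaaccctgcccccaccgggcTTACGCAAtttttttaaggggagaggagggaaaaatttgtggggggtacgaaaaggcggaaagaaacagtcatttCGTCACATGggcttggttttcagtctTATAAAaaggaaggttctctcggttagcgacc
PTGS1 (first start): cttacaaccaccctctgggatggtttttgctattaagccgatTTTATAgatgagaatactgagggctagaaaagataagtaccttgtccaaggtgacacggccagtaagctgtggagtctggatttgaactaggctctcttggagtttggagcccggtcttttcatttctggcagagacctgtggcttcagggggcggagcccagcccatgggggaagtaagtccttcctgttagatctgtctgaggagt
PTGS1 (second start): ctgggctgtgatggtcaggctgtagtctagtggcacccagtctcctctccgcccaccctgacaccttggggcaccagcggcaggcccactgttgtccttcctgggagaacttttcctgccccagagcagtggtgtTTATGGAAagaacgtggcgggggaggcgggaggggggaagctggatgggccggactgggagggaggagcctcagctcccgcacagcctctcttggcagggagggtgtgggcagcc
PTGES: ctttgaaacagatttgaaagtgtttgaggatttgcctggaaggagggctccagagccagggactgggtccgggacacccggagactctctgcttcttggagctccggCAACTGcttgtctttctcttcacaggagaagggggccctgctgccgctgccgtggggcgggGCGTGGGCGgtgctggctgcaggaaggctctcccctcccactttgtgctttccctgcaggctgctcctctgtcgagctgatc
The PTGS2 stretch is chr1:186680424-186680673 on the minus strand and held 5 of the 7 motifs. Counted back from the start, the loose NF-kB core lay at -224 to -215 and the C/EBP core at -133 to -126. The CRE half-site at -58 to -54 overlapped the E-box at -55 to -50, and the TATA box lay at -32 to -27. The PTGS1 stretch lies before the first of its 2 listed starts, chr9:122370283-122370532 on the plus strand, and held 1 motif, the letters of the TATA box on the other strand at -208 to -203. The stretch before its second start, chr9:122375052-122375301, lacked those letters and held the C/EBP core at -115 to -108, a motif that the PTGS2 stretch holds too. The PTGES stretch is chr9:129753043-129753292 on the minus strand and held 2, an E-box at -143 to -138 and the EGR1 letters at -82 to -74. Stretches of PTGES2, PTGES3 and PLA2G4A are not printed. Before the second of 3 PTGES2 starts lay the loose NF-kB core, the C/EBP core, the E-box and the EGR1 letters. Its other stretches held 0 motifs. PTGES3 held the CRE half-site and the loose NF-kB core, and PLA2G4A an E-box. The NF-kB, C/EBP and CRE letters are thus not particular to PTGS2 among these genes. Over 35116 RefSeq promoters of the same length, the EGR1 letters were found in 0.720%, the AP-1 letters in 6.57%, the TATA box in 10.7%, the loose NF-kB core in 16.1%, the CRE half-site in 21.2%, the C/EBP core in 33.2% and the E-box in 61.8%. Most of these short motifs are thus common, and a match describes letters and not a bound site. Of the 7 genes, 6 had an entry in this table, and PTGIS is named only.

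With 4-OHT, PTGS2 rose in WT clones, and PTGES fell in both genotypes. PTGIS fell in KO clones, and in WT clones it was listed at 0 with 4-OHT. Without 4-OHT, PTGS2 already stood several times higher in both KO clones than in both WT clones, a difference that passed by limma-voom on recovered reads and, as for all genes, not by limma-trend, the main test. By limma-trend on log2(RPKM + 1), with Benjamini-Hochberg adjustment over all genes tested, 0 of the 7 genes rose and 2 fell with 4-OHT in KO clones, where 17.1% of 8777 genes rose and 10.6% fell. At an unadjusted p under 0.05, 4 of the 7 were higher and 3 lower in KO clones, where 41.0% of all genes reached that p, and limma-voom called 2 as higher and 2 as lower, where it called 32.2% of all genes. In WT clones 1 rose and 1 fell, against 13.5% and 8.06% of the same 8777 genes. By limma-trend the share of the 7 genes that passed in either direction was thus not far from that of all genes (27.7% in KO and 21.5% in WT clones). By unadjusted p and by limma-voom it was larger than that of all genes in KO clones and slightly larger in WT clones. In WT clones 3 of the 7 had an unadjusted p under 0.05, beside 3043 of 8777 genes. Limma-voom also called 3 of the 7 there, beside 33.8% of all genes. The median log2 fold change of the 7 was 0.60 in KO clones and -0.01 in WT clones, beside 0.05 and 0.06 over all genes.

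**Figure D1:**
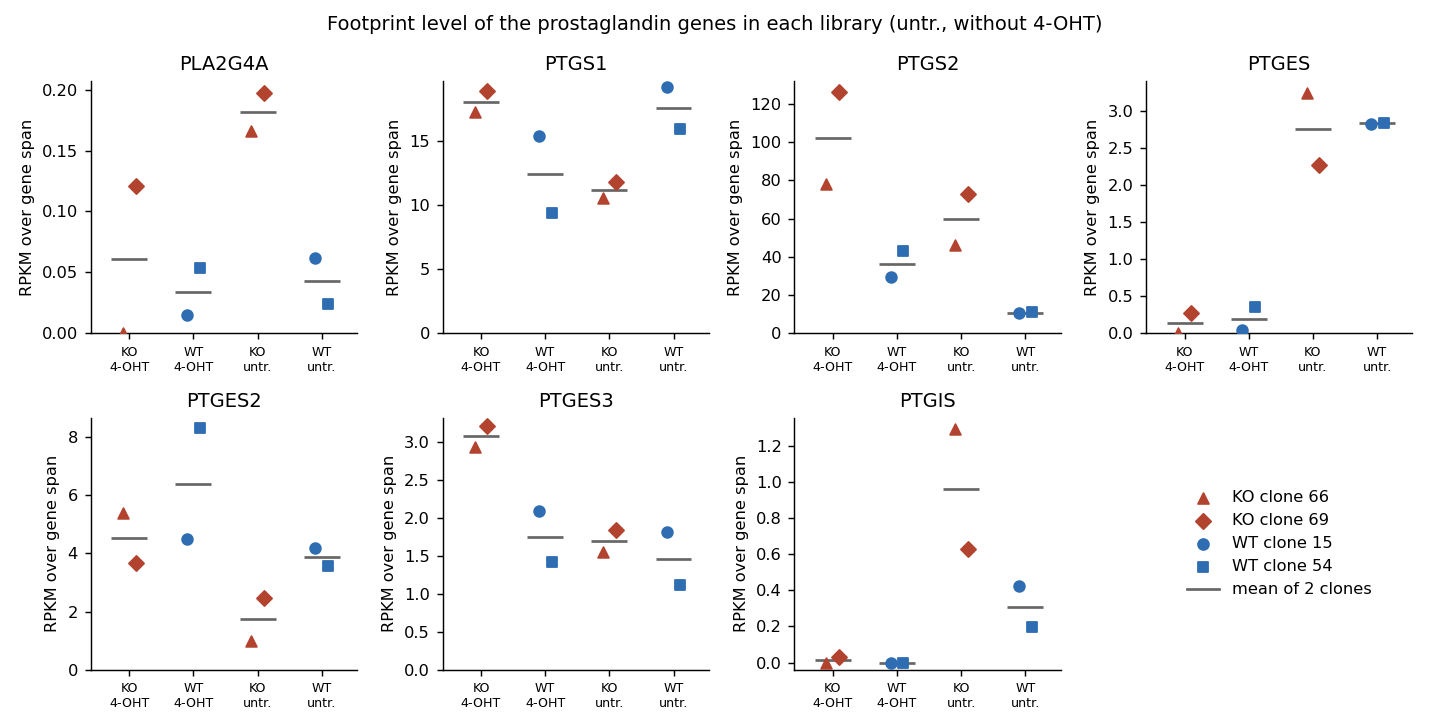
RPKM over the gene span (vertical axis, linear, a scale for each gene) of the 7 genes in each of the 8 libraries. Points are clones and lines are means of 2 clones; PTGS2 is highest in KO clones with 4-OHT (78.3 and 126 RPKM) and lowest in WT clones without it (10.3 and 10.8 RPKM), and PTGES and PTGIS lie near 0 in all 4 libraries with 4-OHT.

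PLA2G4A (ENSG00000116711.10, chr1:186828949-186988981) encodes the phospholipase that starts the pathway and was the lowest of the 7 in RPKM in libraries without 4-OHT, over the longest span of 160033 bp. In KO clones it had 0 and 0.121 RPKM with 4-OHT (0 and 19 recovered reads), against 0.166 and 0.197 RPKM without it (24 and 54 reads). In WT clones it had 0.0148 and 0.0530 RPKM with 4-OHT (4 and 5 reads), against 0.0615 and 0.0237 RPKM without it (13 and 3 reads). Both KO clones without 4-OHT stood above all other libraries. Summed over clones, its share of all reads was 3.94 times as high in KO as in WT without 4-OHT, with an exact 95% counting interval of 2.28 to 7.24 that covers counting error only and not the spread between clones. Without WT clone 15, which left 3 WT reads, it was 7.88 times (2.60 to 39.0), and without WT clone 54 it was 3.04 times (1.68 to 5.96). The log2 fold change between genotypes was 0.18 ± 0.04 (SE) with an adjusted p of 0.508 by limma-trend, and both changes with 4-OHT missed the threshold too (adjusted p of 0.0884 in KO and 0.912 in WT clones). PLA2G4A and PTGS2 lie on the same chromosome, 148526 bp apart.

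PTGS1 (ENSG00000095303.16, chr9:122370533-122395703) encodes the steadily made COX-1 and stood between 9.36 and 19.2 RPKM in all 8 libraries. In KO clones it had 17.2 and 18.9 RPKM with 4-OHT, against 10.6 and 11.8 RPKM without it. In WT clones it had 15.4 and 9.36 RPKM with 4-OHT, against 19.2 and 15.9 RPKM without it. The KO values with 4-OHT lay above the KO values without it, while the WT values with 4-OHT lay below the WT values without it, so the genotypes moved in opposite directions. None of these changes passed, with log2 fold changes of 0.64 ± 0.25 (adjusted p = 0.0928) in KO and -0.50 ± 0.25 (adjusted p = 0.194) in WT clones by limma-trend. The difference between the 2 changes was 1.15 ± 0.35 with an adjusted p of 0.859 and an unadjusted p of 0.0125. By limma-voom on recovered reads the change in KO clones passed (log2 fold change 0.71, adjusted p = 0.0148), as did 32.2% of all genes. In the order of group means, KO with 4-OHT (18.0 ± 1.17 RPKM, SD, n = 2) and WT without 4-OHT (17.5 ± 2.28) overlapped, as did WT with 4-OHT (12.4 ± 4.26) and KO without 4-OHT (11.2 ± 0.877).

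PTGS2 (ENSG00000073756.12, chr1:186671791-186680423) encodes COX-2, the inducible isozyme, and had the highest RPKM of the 7 genes in 6 of the 8 libraries. In KO clones it had 78.3 and 126 RPKM with 4-OHT (129 and 1071 reads), against 46.0 and 73.1 RPKM without it (358 and 1079 reads). The KO groups did not overlap, but the lowest KO value with 4-OHT lay close to the highest without it. The log2 fold change was 0.77 ± 0.32 with an adjusted p of 0.117 by limma-trend, and it passed with each clone paired to itself across 4-OHT (a replicate block; 0.77, adjusted p = 0.0462) and by limma-voom (0.86, adjusted p = 0.00309). The summed read share was 1.86 times as high with 4-OHT (1.72 to 2.01), and 1.23 times without KO clone 69 with 4-OHT.

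In WT clones PTGS2 had 29.2 and 42.9 RPKM with 4-OHT (425 and 218 reads), against 10.3 and 10.8 RPKM without it (117 and 74 reads). Both WT values with 4-OHT lay above both without it, and the log2 fold change was 1.66 ± 0.32 with an adjusted p of 0.0111 by limma-trend. Summed over clones, its share of all reads was 3.13 times as high with 4-OHT (counting interval 2.66 to 3.70). This call was lost without WT clone 15 without 4-OHT (log2 fold change 1.62, adjusted p = 0.0711), without WT clone 54 without 4-OHT (1.69, 0.0661) and without WT clone 54 with 4-OHT (1.39, 0.0789). The difference between the KO and WT changes was -0.89 ± 0.46 on the log2 scale, with an adjusted p of 0.859, so a difference in response between genotypes was not shown.

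Between genotypes, all 4 KO values of PTGS2 lay above the WT values of the same treatment. With 4-OHT the mean was 102 ± 34.0 RPKM in KO and 36.0 ± 9.68 RPKM in WT clones (SD, n = 2 each), and without it 59.6 ± 19.2 in KO and 10.5 ± 0.416 in WT clones. Even without 4-OHT, both KO clones exceeded both WT clones that had received it, a pair of groups from separate tables that was not tested. The log2 fold changes between genotypes were 1.47 ± 0.32 with and 2.35 ± 0.25 without 4-OHT. Neither passed by limma-trend (adjusted p = 0.822 and 0.295), where 0% of 7761 and 0% of 8162 genes passed and 365 and 688 had an unadjusted p under 0.05. By unadjusted p, PTGS2 ranked 20 of 7761 with and 2 of 8162 without 4-OHT. By limma-voom on recovered reads it passed in both settings (adjusted p = 1.37e-11 with and 1.13e-05 without 4-OHT), where 0.696% and 0.833% of genes passed. Of 11 alternatives, which include limma-voom, PTGS2 passed in only 1 with and 2 without 4-OHT. The summed read share was 3.62 times as high in KO as in WT clones with 4-OHT (3.28 to 3.99; 2.39 times without KO clone 69) and 6.09 times without it (5.23 to 7.12).

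Leukocytes are a rich source of COX-2, and their markers moved in part with PTGS2. Of 9 leukocyte markers 3 were listed in each table, and together they held 0.0361% to 0.0408% of reads in KO and 0.0262% to 0.0279% in WT clones with 4-OHT, against 0.0170% to 0.0292% in KO and 0.0139% to 0.0173% in WT clones without it. Nearly all of this was CD68 and CD14, genes that other cells express too. The pan-leukocyte marker PTPRC was not listed with 4-OHT, and without it had 0 and 0.0148 RPKM in KO and 0 and 0.0641 RPKM in WT clones. The monocyte receptor CSF1R was not listed without 4-OHT, and with it had 0 in both KO clones and 0.0197 and 0 RPKM in WT clones. The part of CD68 and CD14 in the PTGS2 values was not tested.

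The balance of the 2 cyclooxygenases was read from PTGS2 reads per PTGS1 read within a library, which does not depend on its depth. It was 1.56 and 2.30 in KO clones with 4-OHT, 0.651 and 1.57 in WT clones with 4-OHT, 1.49 and 2.13 in KO clones without 4-OHT, and 0.184 and 0.233 in WT clones without it. COX-2 footprints thus outnumbered COX-1 footprints in all 4 KO libraries and in 1 of 4 WT libraries. In WT clones without 4-OHT, PTGS2 held 15.5% and 18.9% of the reads of both genes. In KO clones the means were 1.93 ± 0.521 with and 1.81 ± 0.447 without 4-OHT (SD, n = 2 each), which overlapped, while the WT means of 1.11 ± 0.651 with and 0.208 ± 0.0352 without 4-OHT did not. No exact permutation test was run, since 2 clones a group allow 3 distinct splits and so no p below 1 in 3.

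**Figure D2:**
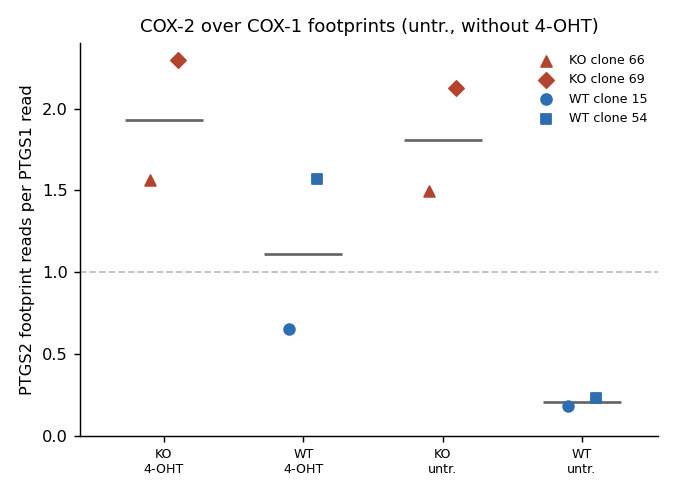
PTGS2 footprint reads per PTGS1 read (vertical axis, linear) in each library, with clones as points, means of 2 clones as lines and equal numbers as a dashed line. All 4 KO libraries lie between 1.49 and 2.30, and the WT libraries without 4-OHT lie at 0.184 and 0.233.

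PTGES (ENSG00000148344.11, chr9:129738349-129753042) encodes microsomal prostaglandin E synthase 1, the synthase usually induced together with COX-2. In WT clones it fell while PTGS2 rose. In KO clones it had 0 and 0.277 RPKM with 4-OHT (0 and 4 reads), against 3.24 and 2.27 RPKM without it (43 and 57 reads). In WT clones it had 0.0404 and 0.347 RPKM with 4-OHT (1 and 3 reads), against 2.83 and 2.84 RPKM without it (55 and 33 reads). All 4 libraries with 4-OHT lay below all 4 without it, and without 4-OHT the KO and WT values overlapped. The log2 fold changes were -1.72 ± 0.23 in KO (adjusted p = 0.00242) and -1.70 ± 0.23 in WT clones (adjusted p = 0.00295) by limma-trend, and both calls held in all 16 alternatives run. The added 1 shrinks these changes: in summed read share PTGES was 11.2-fold lower with 4-OHT in KO (4.25 to 42.0) and 23.7-fold lower in WT clones (8.93 to 88.8). With so few reads 1 library decides these folds. Without KO clone 69 with 4-OHT no read was left in that group, and PTGES was at least 2.44-fold lower by a floor of 3 reads over the group. Without WT clone 15 with 4-OHT the fold was 8.17 (2.71 to 40.4), and without WT clone 54 with 4-OHT it was 70.2 (12.3 to 2804). Mean RPKM gave a fold of 19.9 in KO and 14.7 in WT clones, so no order of the genotypes is read from these folds.

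PTGES2 (ENSG00000148334.15, chr9:128120693-128128440) and PTGES3 (ENSG00000110958.16, chr12:56663349-56688284) encode synthases that are made steadily, and PTGES3 is better known as p23, a cochaperone of HSP90. PTGES2 had 5.39 and 3.67 RPKM in KO clones with 4-OHT and 0.999 and 2.48 RPKM in KO clones without it, and 4.50 and 8.30 RPKM in WT clones with 4-OHT and 4.19 and 3.58 RPKM in WT clones without it. PTGES3 had 2.93 and 3.21 RPKM in KO clones with 4-OHT and 1.55 and 1.84 RPKM in KO clones without it, and 2.08 and 1.42 RPKM in WT clones with 4-OHT and 1.81 and 1.11 RPKM in WT clones without it. In KO clones both genes stood higher with 4-OHT without overlap, but neither passed (log2 fold changes 1.05 ± 0.36 and 0.60 ± 0.23, adjusted p = 0.0662 and 0.0996 by limma-trend). In WT clones the changes of 0.55 ± 0.36 and 0.17 ± 0.23 did not pass either (adjusted p = 0.320 and 0.671). The span of PTGES3 holds the pseudogene RN7SL809P, 297 bp of its 24936, and that of PTGIS overlaps the noncoding RNA gene LOC101927486 by 94 bp. Whether reads of these overlaps were counted to PTGES3 or PTGIS is not known.

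PTGIS (ENSG00000124212.6, chr20:49503874-49568137) encodes prostacyclin synthase, which competes with the PGE synthases for prostaglandin H2. It had 0 and 0.0317 RPKM in KO clones with 4-OHT (0 and 2 reads), against 1.29 and 0.628 RPKM in KO clones without it (75 and 69 reads). It had 0 in both WT clones with 4-OHT, against 0.424 and 0.197 RPKM in WT clones without it (36 and 10 reads). The highest library with 4-OHT was thus below the lowest without it. In KO clones the log2 fold change was -0.93 ± 0.16 (adjusted p = 0.00553 by limma-trend), a call that held in all 16 alternatives. PTGIS too met the filter of 10 reads only through libraries without 4-OHT. Its p-values and alternatives are therefore a description and not independent support for the fall. The summed read share in KO clones was 32.4-fold lower with 4-OHT (counting interval 8.80 to 269.8). Leaving out the library without 4-OHT of KO clone 69 gave a fold of 48.8, and leaving out that of KO clone 66 gave 23.7. The fold was at least 3.51 without KO clone 69 with 4-OHT, which leaves no read in the group. In WT clones 0 of 2272788 reads fell on PTGIS with 4-OHT, against 46 without it, which makes its read share at least 16.5-fold lower when 3 reads over the group are taken as the floor. That bound rests on the depth of WT clone 15: it was 4.27-fold without its library with 4-OHT and 9.58-fold without its library without 4-OHT. On the log2(RPKM + 1) scale the WT change was -0.38 ± 0.16 and did not pass (adjusted p = 0.129), while it passed by limma-voom (adjusted p = 0.00102), like 33.8% of all genes, and in 7 of 16 alternatives in all. Without 4-OHT both KO clones stood above both WT clones, with a summed read share 2.53 times as high (1.81 to 3.61). This ratio was 4.36 without WT clone 15, 2.02 without WT clone 54, 3.82 without KO clone 69 and 1.85 without KO clone 66. The log2 fold change was 0.57 ± 0.19 (adjusted p = 0.582 by limma-trend).

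Endothelial and smooth muscle cells are known sources of prostacyclin. Of 7 endothelial markers 2 were listed in each table, and together they held 0.00105% to 0.00255% of reads in KO and 0.00249% to 0.00560% in WT clones with 4-OHT, against 0 in both KO clones and 0.000227% to 0.000632% in WT clones without it. Nearly all of this was TIE1, an endothelial receptor, which had 0.474 and 1.15 RPKM in KO and 1.05 and 2.53 RPKM in WT clones with 4-OHT, against 0 in both KO clones and 0.0684 and 0.286 RPKM in WT clones without it. TIE1 thus stood higher where PTGIS stood lower, while CDH5, KDR, ERG and TEK were listed in neither table. Of 5 smooth muscle markers 3 were listed, and they held 0 to 0.000520% of reads in KO and 0.000648% to 0.00101% in WT clones with 4-OHT, against 0.00151% to 0.00253% in KO and 0.000753% to 0.00369% in WT clones without it. The smooth muscle protein CNN1 had 0.453 and 0 RPKM in KO and 0.513 and 0.441 RPKM in WT clones with 4-OHT, against 2.21 and 1.11 RPKM in KO and 2.55 and 0.657 RPKM in WT clones without it, and so stood lower with 4-OHT, as PTGIS did. Summed over clones this was 1 read in KO and 13 in WT clones with 4-OHT, against 45 in each without it. In WT clone 54 the other listed markers went the other way, DES from 0 to 0.406 and MYH11 from 0 to 0.0110 RPKM with 4-OHT. In the other clones DES and MYH11 stood lower with 4-OHT or stayed at 0. Of 5 keratinocyte markers only KRT10 was listed, with 5.82 and 2.26 RPKM in KO and 3.69 and 10.2 RPKM in WT clones with 4-OHT, against 0 and 0.130 RPKM in KO and 0.336 and 0.843 RPKM in WT clones without it. The part of these markers in the values of PTGIS, PTGES and PTGS2 was not tested.

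Across the 7 genes, groups did not overlap between 4-OHT and no 4-OHT for 7 of 7 genes in KO clones and 5 of 7 in WT clones, where the same held for 62.5% and 69.0% of all genes tested. Between KO and WT clones it was 5 of 7 genes without 4-OHT, beside 39.5% of all genes, with PLA2G4A, PTGIS and PTGS2 higher and PTGS1 and PTGES2 lower in KO clones. With 4-OHT only PTGS1, PTGS2, PTGES2 and PTGES3 had reads enough to be tested, and 3 of these 4 did not overlap, beside 37.6% of all genes. Genes of short span tended to be higher with 4-OHT: across 8777 genes, which are not independent, the Spearman rho between span and change was -0.22 in KO and -0.28 in WT clones. PTGS2, with a span of 8633 bp, lies below the median span of 34139 bp and PTGIS, with 64264 bp, above it, while PTGES with 14694 bp fell although its span is short. The part of span in these changes was not tested.

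**Figure D3:**
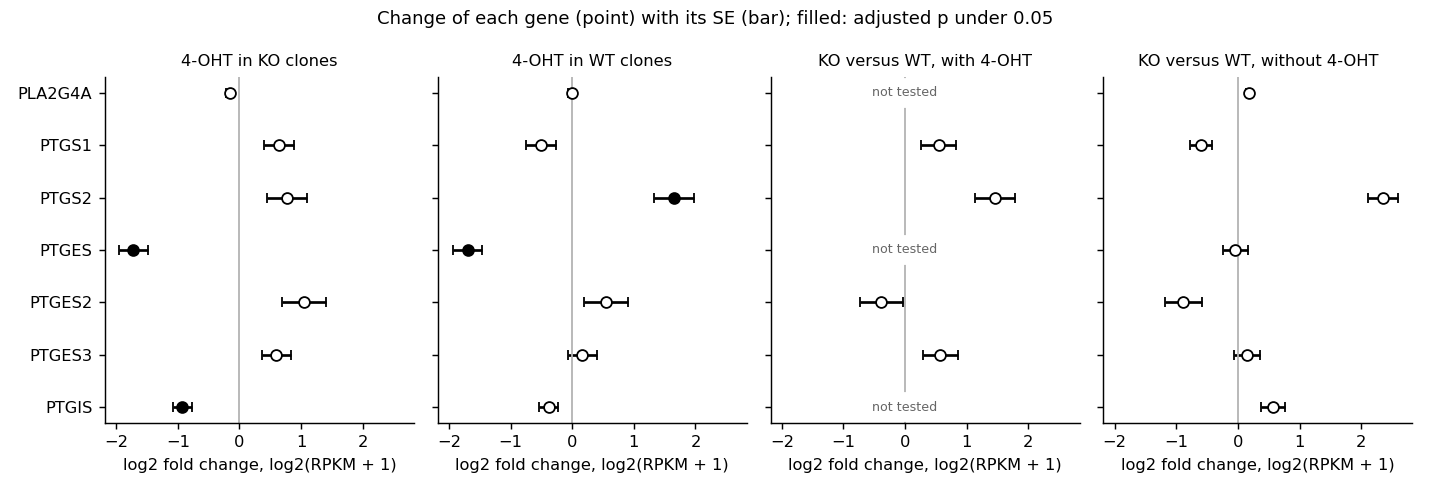
Log2 fold change on the log2(RPKM + 1) scale (horizontal axis) of each gene in 4 comparisons, with points for estimates, bars for the SE of the fit and filled points for an adjusted p under 0.05. PTGES is filled in both 4-OHT panels, PTGIS in the KO panel (-0.93) and PTGS2 in the WT panel (1.66); no gene is filled between genotypes, where PTGS2 lies at 1.47 with and 2.35 without 4-OHT.

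Counts in the lists of neighbouring genes are to be read beside the 17.1% of all genes that rose and the 10.6% that fell in KO clones, and the 13.5% and 8.06% in WT clones. Among 13 genes around arachidonate release, which are lipases and the phospholipase regulators S100A10 and ANXA1, 2 rose and 1 fell in KO clones and 2 rose and 1 fell in WT clones, a share near that of all genes. The lipases among these were PLA2G12A, a secreted phospholipase A2, which rose in KO clones (log2 fold change 0.84), and MGLL, monoacylglycerol lipase (0.42), and DAGLB, a diacylglycerol lipase (-0.73), in WT clones. S100A10, the annexin partner that binds cytosolic phospholipase A2, had 96.7 and 130.1 RPKM in KO clones with 4-OHT and 28.8 and 32.3 RPKM in KO clones without it. In WT clones it had 110.0 and 117 RPKM with 4-OHT and 29.3 and 32.1 RPKM without it, and it rose by 1.85 ± 0.20 on the log2 scale in each genotype (adjusted p = 0.00105 in KO and 0.00115 in WT by limma-trend). ANXA1, known as an inhibitor of phospholipase A2, fell in KO clones (log2 fold change -0.79). Among 9 genes of arachidonate supply and return to membranes, 2 rose in KO clones, ACSL4 (0.82) and MBOAT2 (0.15), and 2 fell in WT clones, LPCAT3 (-0.79) and ELOVL5 (-0.64).

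Of 5 other terminal synthases tested, 2 rose in KO and 1 in WT clones. AKR1B1, an aldose reductase with prostaglandin F synthase activity, had 12.2 and 9.55 RPKM in KO clones with 4-OHT against 4.70 and 6.77 RPKM without it, and 14.9 and 14.3 RPKM in WT clones with 4-OHT against 6.23 and 5.97 RPKM without it. It rose in both (log2 fold change 0.83 in KO and 1.14 in WT clones), and CBR3, a carbonyl reductase, rose in KO clones (10.0 and 6.12 RPKM with 4-OHT against 1.45 and 1.02 RPKM without it). Of 5 genes of breakdown and transport 0 passed in either genotype by limma-trend, while 1 in each had an unadjusted p under 0.05 and limma-voom called 2 in each, ABCB1 and PTGR1, which are named here after their values were seen. Of 4 receptors 1 passed by limma-trend, PTGER4, the EP4 receptor for prostaglandin E2, which rose in both genotypes, and limma-voom also called PPARD, a nuclear receptor named here after its values were seen, as higher in WT clones. PTGER4 had 0.379 and 0.368 RPKM in KO clones with 4-OHT against 0 and 0.169 RPKM without it, and 0.172 and 0.246 RPKM in WT clones with 4-OHT against 0 in both without it. These levels are low, and the 0.379 RPKM comes from the shallowest library. The PTGER4 call held in 12 of 16 alternatives in KO and in 9 of 16 in WT clones. Of 5 genes of the neighbouring lipoxygenase and epoxide branch 2 fell in each genotype, the epoxide hydrolases EPHX1 (log2 fold change -2.50 in KO and -2.04 in WT clones) and EPHX2 (-0.49 and -0.62).

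Of 25 known inducers and regulators of COX-2, 4 rose and 2 fell in KO clones and 3 rose and 1 fell in WT clones, which is no larger a share than the 27.7% of all genes that passed in KO and the 21.5% in WT clones. Of the 25, IL1B, the cytokine interleukin-1 beta and a strong inducer of PTGS2, had the largest log2 fold change in both genotypes. It had 103 and 131 RPKM in KO clones with 4-OHT against 1.86 and 3.60 RPKM without it, and 135 and 84.0 RPKM in WT clones with 4-OHT against 1.69 and 0.707 RPKM without it. FOSL1, an AP-1 subunit, rose by 3.99 in KO and 3.13 in WT clones on the log2 scale. CEBPD, a C/EBP factor, fell in both (-2.21 and -2.77), and the interleukin-1 receptor adaptor MYD88 fell in KO clones (-1.82). Another C/EBP factor of the list, CEBPB, went the other way and is named here after its values were seen. It rose in KO clones (1.05, adjusted p = 0.0372 by limma-trend) and did not pass in WT clones (0.32, adjusted p = 0.491). Among 8 proteins known to bind PTGS2 mRNA or its AU-rich elements, 4 rose in KO and 3 in WT clones, where 17.1% and 13.5% of all genes rose. They include the stabilising ELAVL1 (log2 fold change 1.30 in KO and 0.87 in WT clones) and, of the destabilising family of ZFP36, ZFP36L2 (1.82 and 1.56). Of 12 genes of the HSP90 machinery in which p23 works, 4 rose in KO and 3 in WT clones, against the same 17.1% and 13.5% of all genes, and FKBP4 (1.54 and 1.39) and STIP1 (0.93 and 1.39) were among them.

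Medians of these 9 lists ranged on the log2 scale from -0.44 to 0.71 in KO and from -0.15 to 0.84 in WT clones. Between genotypes and for the difference between the 2 responses, 0 genes of every list passed by limma-trend. Of the list genes tested, 4 of 79 between genotypes with 4-OHT, 6 of 83 without it and 7 of 86 for the difference had an unadjusted p under 0.05, beside 4.70%, 8.43% and 5.16% of all genes, and limma-voom called 0 in each. Of the list genes named by rule and called, 9 of 22 in KO and 6 of 19 in WT clones kept their call in all 16 alternatives, IL1B, FOSL1, S100A10, EPHX1 and FKBP4 in both, and all kept their direction. With the clone as a replicate block, ACSL4, AKR1B1, MBOAT2 and ZFP36 missed the threshold in KO clones (adjusted p = 0.0517, 0.0672, 0.0604 and 0.0734), and DAGLB, ELOVL5, LPCAT3 and PTGER4 missed it in WT clones (adjusted p = 0.0786, 0.0928, 0.0822 and 0.0658).

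**Figure D4:**
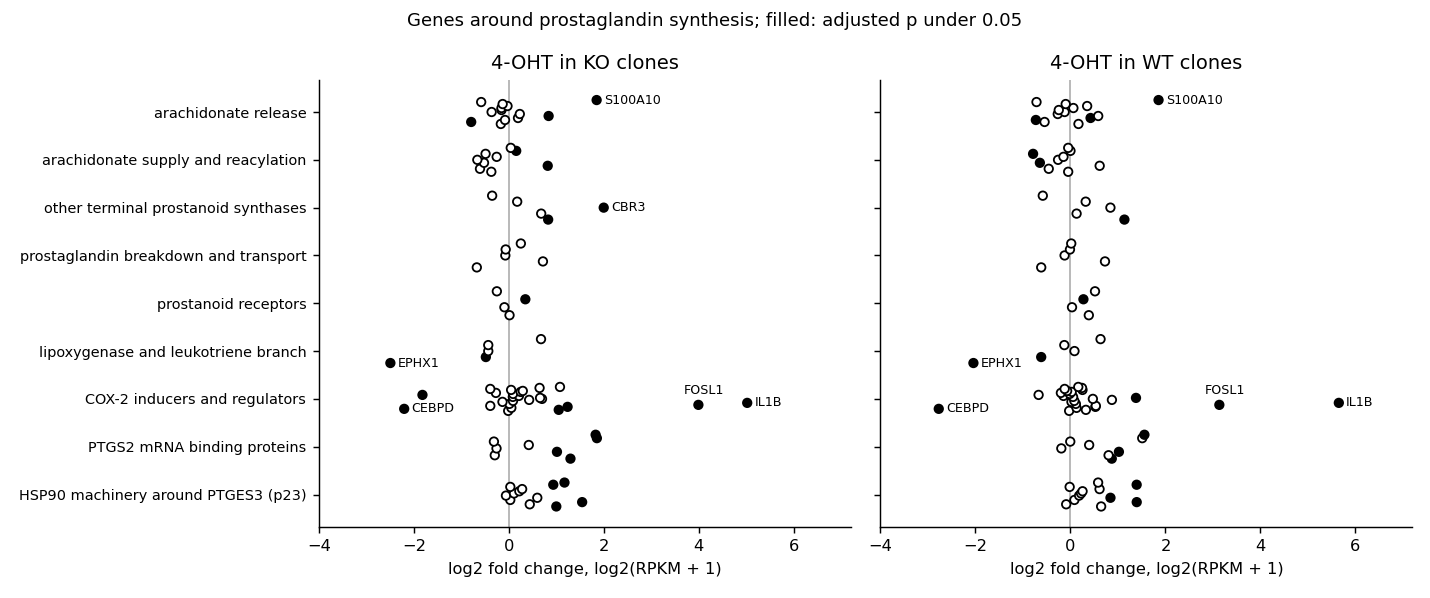
Log2 fold change with 4-OHT on the log2(RPKM + 1) scale (horizontal axis) of each tested gene (point) in 9 lists around prostaglandin synthesis, in KO clones (left) and WT clones (right), filled where the adjusted p was under 0.05. IL1B lies farthest to the right in both (5.02 and 5.65) and EPHX1 or CEBPD farthest to the left (-2.50 in KO, -2.77 in WT clones).

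Of 1846 tested genes with a mean of at least 5 RPKM, those whose log2(RPKM + 1) followed PTGS2 most closely over the 8 libraries were HIST3H2A (Pearson r 0.93), NPC2 (0.92), FXYD5 (0.92), CD68 (0.89) and SRSF3 (0.86), given as a description, since the libraries share clones and treatment. CD68, the lysosomal glycoprotein counted above among leukocyte markers, had 105.9 and 151 RPKM in KO clones with 4-OHT, 77.1 and 88.7 in WT clones with 4-OHT, 55.0 and 101 in KO clones without it, and 43.3 and 55.5 in WT clones without it. For PTGES, among 1847 genes, the closest was FLNC (0.998), a filamin, and for PTGIS it was FKBP10 (0.94), a collagen chaperone. After FKBP10 came PERP (0.92), HNRNPH2 (0.92), LOX (0.92), the collagen cross-linking oxidase, and ATP2A2 (0.90).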

How the data were processed

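Footprint libraries were made by the protocols of McGlincy and Ingolia, per the labels' protocols, and STAR and GRCh38 are named in the submitters' processing notes. For the read counter and annotation nothing is given in the sources used here. The authors deposited 2 tables with no unit named. Values times gene span summed to nearly the same total per library, so the deposited values were read as RPKM over the whole span. Spans came from RefSeq GRCh38.p14 (11447 of 11546 and 10980 of 11079 genes; 99 in each table had none and were not tested). Reads were recovered as whole multiples of 1 step per library. Of values under 8.5 reads, 78.2% to 83.0% lay within 0.1 of a whole number, so recovered reads are approximate. A test on log values was used since the values are not counts.

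A gene needed 10 or more recovered reads in 2 or more libraries to enter limma-trend (limma 3.58.1, R 4.3.3) on log2(RPKM + 1), with Benjamini-Hochberg adjustment and a threshold of 0.05. Changes with 4-OHT and their difference were fitted on all 8 libraries, and KO against WT on the 4 libraries of each table. The script was tested on simulated data. Pooled-read ratios have exact 95% counting intervals (scipy 1.17.1). PCR copies are not independent molecules, so intervals and the floor of 3 reads cover counting error only. The labels call the clones independent, and each counted as 1 replicate. Same-numbered libraries with and without 4-OHT come from the same clone, which pairs them; their deviations from the group means correlated at 0.01 in KO and 0.14 in WT clones.

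The 7 genes, the lists and the tests were chosen with earlier results of these data known. From each list up to 4 called genes with the largest change could be named per comparison, and the text names part of them. Likeness was over genes with a mean of at least 5 RPKM. Alternatives were a pseudocount of 0.1, no filter, limma-voom on recovered reads, median-ratio scaling, each library left out, other libraries in the fit and the clone as a block. Added after the data were seen were limma-voom with that block, limma-trend on log2(CPM + 1) of the recovered reads, and pooled-read ratios without each library in turn. TIE1, CNN1 and KRT10 were picked from the marker lists after their values were seen.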

Additional observations from a re-analysis of the deposited data

Results flagged for a closer look

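PTGS1 stood out because its change with 4-OHT ran in opposite directions in the genotypes. Both KO clones were higher with 4-OHT than without it, and both WT clones were lower, and the log2 difference of the changes was 1.15 ± 0.35. The test of that difference by limma-trend gave an adjusted p of 0.859, so it did not pass. It kept its sign in 15 of 15 alternatives, with adjusted p-values of 0.0647 to 0.996.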

How the results depend on the processing

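As deposited, 2427 genes passed with 4-OHT in KO clones, 1889 in WT clones and 0 between genotypes or for the difference between the responses (453 with an unadjusted p under 0.05). Limma-voom gave 2968 in WT clones, 54 between genotypes with and 68 without 4-OHT, and 4 for the difference. Leaving out 1 library gave 1114 to 3521 in KO clones, 804 to 2553 in WT clones, 0 to 810 between genotypes with 4-OHT and 0 to 2 for the difference; the 810 came without KO clone 69, which leaves the shallow clone 66 alone and assumes that it varies like the WT clones. Past a factor of 1.5 the counts moved without KO clone 66 (1114) or KO clone 69 (1499) without 4-OHT, and in WT clones without any of the 4 WT libraries (804 to 1041). Only the 4 KO libraries gave 1274, and all 8 libraries gave 3 between genotypes without 4-OHT. Limma-trend on log2(CPM + 1) gave 2 with and 49 without 4-OHT between genotypes. Median-ratio scaling gave 1003 higher and 1331 lower in KO clones in place of 1498 and 929, and 808 and 959 in WT clones in place of 1182 and 707.

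The clone as a replicate block gave 1556 genes in WT clones, 3 between genotypes without 4-OHT (random block), and with limma-voom 3044 in WT clones and 13 for the difference. With the block the PTGS2 change in KO clones passed at 0.77, and at 0.78 with limma-voom. By limma-trend it changed no other call of the 7 genes.

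For PTGS2, the WT change was 1.39 to 1.93 without 1 library, losing its call in 3 cases. Its KO change passed by limma-voom (0.86), and its genotype difference passed by limma-voom (1.68 with and 2.50 without 4-OHT) and on log2(CPM + 1) without 4-OHT (2.45). The adjusted p of that difference with 4-OHT ranged from 1.37e-11 to 1.00, and without 4-OHT from 1.13e-05 to 0.999. The cause of these differences was not tested.

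Values that did not pass turned their sign in a few settings. PTGES3 in WT clones gave -0.0019 with median-ratio scaling. The difference of responses for PTGES was 1.27 with limma-voom and 0.84 with its block, and for PTGIS 1.00 and 0.85. Without 1 library PTGES3 in WT clones ranged from -0.041 to 0.37, PLA2G4A in WT clones from -0.039 to 0.015, PTGES3 between genotypes without 4-OHT from -0.063 to 0.35, PTGES there from -0.23 to 0.15 and the difference for PTGES from -0.21 to 0.16. Comparing the genes per kilobase of coding length was not run. At this depth PTGES, PTGIS and PLA2G4A had too few reads to be tested between genotypes with 4-OHT. In summed read share PLA2G4A was 4.09 times as high in KO as in WT clones there (counting interval 1.76 to 10.3). This rests on 19 against 9 reads, with all KO reads from clone 69, and was 1.91 times (0.69 to 6.53) without WT clone 15.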
